A study of Mus musculus with 6 samples.

Results

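The genes described here are 36 mouse genes that earlier studies named as direct targets of the microRNA miR-124. They were taken by their gene names on the arrays, where 79 of 56583 probes carried 1 of the 36 names, and neural regulators named as targets in the same literature were left out of the list. Expression was compared in 6 teratomas, tumours of mixed tissue that mouse embryonic stem cells form under the skin of immunodeficient BALB/c nude mice. In 3 tumours, called control, a miRNA negative control was injected, and in the other 3, called miR-124a, a mimic of miR-124a-3p was injected. Both groups received the RNA as a complex with the carrier Atelogen QG, directly into the tumour, at 15 µg in 100 µL every 3 days until day 28. Injections began about 10 days after the cells had been implanted, when tumours measured at least 100 mm3, and RNA came from 1 of the pieces into which each tumour was cut. The labels name 3 separate mice in each group and give neither an untreated group nor the age of the mice.

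MicroRNAs are short RNAs that guide a silencing complex to messenger RNAs by pairing with short matches, mostly in the 3′ untranslated region, and lower the stability and translation of those messages. miR-124 is abundant in neurons, and transcripts it is known to bind include many that non-neural cells use for adhesion, matrix, motility and secretion. A teratoma holds several tissues at once, so each value below is an average over the cells of a piece of tumour, and in such bulk RNA fewer cells of a type cannot be told apart from less RNA per cell.

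Signal is given as log2 of the spot intensity relative to the 75th percentile of the same array, so a value of 0 is a spot as bright as that percentile. A difference is the mean of the 3 miR-124a tumours minus the mean of the 3 control tumours on that log2 scale, and -1 is a halving. The 75th percentile of intensity lay between 278.6 and 315.2, and 63.4% to 65.9% of probes on an array were well above background. Pairs of arrays correlated at 0.979 to 0.990 across all 56583 probes, which are not independent replicates. The 3 control arrays shared 1 slide row and the 3 miR-124a arrays the other row, so group and slide row cannot be told apart. Tests were made with limma over all 22946 tested genes, with Benjamini-Hochberg adjustment and a threshold of 0.05. At that threshold 630 genes were lower and 112 higher with the mimic, a split of 84.9% lower that became 62.1% with normexp background correction and quantile scaling.

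Of the 36 reported targets, 2 passed the threshold, both lower, Plp2 and Cd164, and 0 passed in the other direction, beside 2.75% of all tested genes called lower and 0.488% called higher. Without any 1 of the 6 tumours 0 of the 36 passed, while at an unadjusted p under 0.05 (limma) 11 to 15 were lower in those reduced comparisons. The count was 8, all lower, with normexp background correction (4.17% of all genes called lower) and with a variance trend and robust estimation (5.86%), and 0 without the filter on dim probes (0.208%). With all 6 tumours, 17 of the 36 were lower and 0 higher at an unadjusted p under 0.05, beside 15.9% and 11.4% of all tested genes. The difference was below 0 for 31 of the 36, beside 50.3% of all genes, and its median was -0.23, beside -0.002 over all genes. In 18 targets every miR-124a tumour lay below every control tumour, and in 0 targets above, beside 20.6% and 15.0% of all genes. These values depend in part on the scaling. The target median was -0.18 under quantile scaling and -0.18 with normexp, beside 0.02 and 0.01 over all genes. At an unadjusted p under 0.05 (limma) 11 targets were lower and 0 higher under quantile scaling, beside 6189 of 22946 genes in either direction. With normexp 15 were lower and 1 higher, beside 6373 genes in either direction.

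The targets have bright probes, and bright probes were separated downward more often. When all tested genes were split into 4 equal groups by signal, 18 targets fell in the brightest group, 12 in the next, 6 in the one after and 0 in the dimmest. In the brightest group 11 of 18 targets lay below without overlap, beside 33.6% of all genes in that group. In the next group the count was 3 of 12, beside 20.4%, and in the one after it was 4 of 6, beside 15.4%. The median difference of the targets in these groups was -0.25, -0.13 and -0.44, beside -0.07, 0.01 and 0.04 for all genes. All 36 targets were well above background on all 6 arrays, so none entered through 1 group only.

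**Figure D1:**
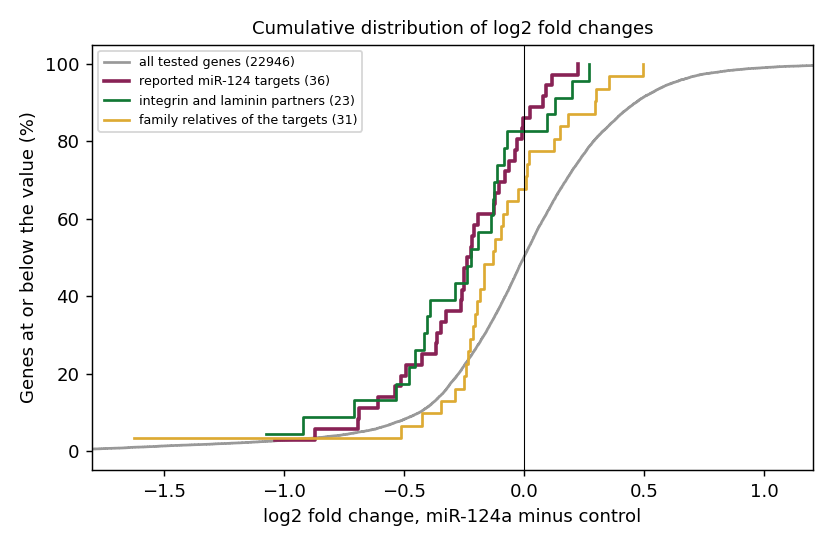
Cumulative share of genes (percent, vertical axis) at or below each log2 fold change (miR-124a minus control, horizontal axis) for all 22946 tested genes, the 36 reported targets, 23 integrin and laminin partners and 31 family relatives of the targets. At 0 the curve of the targets stands at 86.1% and that of all genes at 50.3%, while the curve of the partners, at 82.6%, runs beside that of the targets.

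Within the list the tumours differed among themselves. The median over the 36 targets, relative to the control mean of each gene, was -0.06, 0.06 and -0.02 in control 1, 2 and 3 and -0.22, -0.33 and -0.15 in miR-124a 1, 2 and 3. The tumour miR-124a 2 held the lowest value of the 6 in 23 of the 36 targets, and control 2 held the highest in 17. The SD between tumours of a group had a median over the targets of 0.12 among controls and 0.10 among miR-124a tumours.

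Tissue markers moved between the groups as well. All 8 skeletal muscle markers fell (0 to 6 passed without 1 tumour), beside 2.75% of all tested genes called lower. Their median difference was -1.67. The summed linear level of these markers, relative to the 75th percentile, was 223.7 to 371.5 in controls and 84.4 to 121.3 in miR-124a tumours. Among 7 neuron markers 0 passed (5 were higher at an unadjusted p under 0.05, limma), and 5 lay above without overlap, beside 15.0% of all tested genes. The median of the neuron markers was 0.44, and their summed level was 101.9 to 120.0 in controls and 136.1 to 168.6 with the mimic. Of 4 smooth muscle markers, Acta2 fell by 1.14 on the log2 scale (limma adjusted p of 0.0278 to 0.0896 without 1 tumour) and 3 did not pass. At an unadjusted p under 0.05 (limma) 2 of the 4, Acta2 and Tagln (-0.30), were lower and 0 higher. Myh11 had 0.11 and Cnn1 -0.08, and the median of the 4 was -0.19. Their sums, which include Acta2, were 39.2 to 45.3 in controls and 22.3 to 25.3 with the mimic. Of 8 fibroblast and mesenchyme markers 0 passed (2 lower and 0 higher at an unadjusted p under 0.05), with a median of -0.26 that was -0.02 under quantile scaling and -0.01 with normexp, and sums of 261.6 to 393.8 and 220.3 to 264.3. Among 6 endothelial, 6 macrophage and 6 epithelial markers 0 passed, with medians of -0.12, -0.06 and -0.35, and at an unadjusted p under 0.05 (limma) 1 endothelial marker was lower. For comparison, 15.9% of all tested genes were lower and 11.4% higher at that unadjusted p (limma). Every marker of these lists was well above background on all 6 arrays. The part that these shifts had in the values of the targets was not tested.

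**Figure D2:**
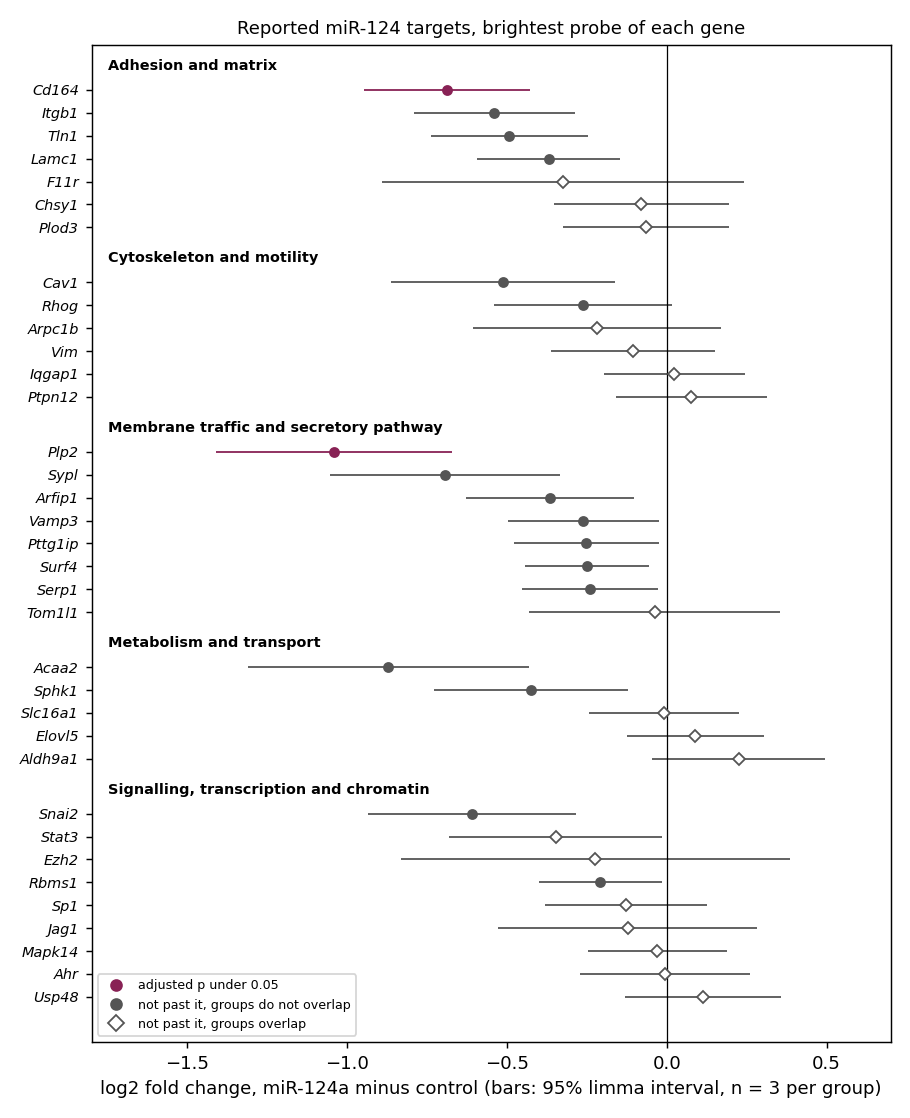
Log2 fold change (miR-124a minus control, horizontal axis) of the reported targets described in the text, 1 row for each gene by its brightest probe, grouped by role; bars are 95% intervals from limma with 3 tumours in each group. Plp2 at -1.04 and Cd164 at -0.69 passed the threshold, filled symbols mark targets without overlap, and the highest value is 0.22 for Aldh9a1.

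The targets of adhesion and matrix comprised 7 genes, all with values below 0, of which Cd164 fell and 6 did not pass. Below without overlap lay 4 of the 7, beside 20.6% of all tested genes, of which 2.75% were called lower. The median of the 7 was -0.37, and their per-tumour median was -0.08 to 0.11 in controls and -0.52 to -0.40 with the mimic. Cd164 encodes endolyn, a sialomucin of endosomes and the cell surface that takes part in cell adhesion. Its probe, on chromosome 10 (mm9 chr10:41250657-41250716, + strand), read 4.14, 4.36 and 4.35 in controls 1 to 3 and 3.58, 3.51 and 3.71 in miR-124a 1 to 3. Every miR-124a tumour lay below every control. The difference was -0.69 ± 0.11 (SE, n = 3 and 3; limma adjusted p = 0.0350), a signal 1.61-fold lower, and without any 1 tumour the value was -0.76 to -0.64 with an adjusted p of 0.0666 to 0.140.

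Itgb1 encodes the β1 integrin chain, which pairs with many α chains to form receptors for laminin, collagen and fibronectin. Its brightest probe, which lies farthest 3′ of its probes (mm9 chr8:131257001-131257060, + strand), read 3.85, 4.09 and 3.88 in controls and 3.42, 3.31 and 3.46 in miR-124a tumours. The groups did not overlap, and control 2 was the highest tumour. The difference of -0.54 ± 0.10 did not pass (limma adjusted p = 0.0521).

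Itgb1 was measured by 3 probes, and they differed in size. The β1 chain has a general splice form, β1A, and a form of striated muscle, β1D, which differ at the inner tail of the protein. The array holds 1 probe whose file description names integrin β1D and 1 that spans a splice junction in the transcript of the general form, and both are shown because the results for Itgb1 turn on them. For the β1D probe the first 30 of 60 bases are printed, with the stop codon of its open reading frame in capitals, and for the β1A tail probe all 60 bases, with the 23-base run that also occurs in the β1D probe in capitals.
Itgb1 β1D probe, part, mm9 chr8:131250931-131255949, + strand: aactatggacgtaaagctggtctcTGAgtt
Itgb1 β1A tail probe, mm9 chr8:131250081-131255976, + strand: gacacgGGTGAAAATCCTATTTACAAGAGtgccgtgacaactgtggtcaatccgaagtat
Both probes lie across a junction, so their start and end enclose intron sequence. The shared run of 23 bases starts at base 7 of the β1A tail probe. In the β1D probe it starts at base 34, past the stop codon. Most of the β1A tail probe may thus lie in sequence that both forms carry, so it may read both forms, and its name is only a label. The β1D probe may take some signal from the general form.

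The β1D probe read -2.04, -1.44 and -1.86 in controls and -3.45, -3.14 and -2.71 in miR-124a tumours, all 6 well above background. Every miR-124a tumour lay below every control, with miR-124a 1 the lowest. In the fit over 35719 probes its difference was -1.32 ± 0.23 (limma adjusted p = 0.0441), which was -0.62 with normexp background correction (adjusted p = 0.0388). Without 1 tumour it was -1.51 to -1.15 and passed only without miR-124a 3 (adjusted p = 0.0451). The β1A tail probe read 1.24, 1.23 and 1.25 in controls and 0.77, 0.94 and 0.95 in miR-124a tumours, groups again apart, with a difference of -0.36 ± 0.10 (adjusted p = 0.0931). The difference between these probes was examined after their values had been seen. It does not compare separate forms, since the β1A tail probe may read both. Relative to the control mean, β1D minus β1A tail was -0.27, 0.35 and -0.08 in controls and -1.19, -1.06 and -0.64 in miR-124a tumours (mean -0.96, SD 0.29). The groups did not overlap, and the exact two-sided permutation test gave p = 0.1, the smallest that 3 against 3 can give. The skeletal muscle markers were lower in the same 3 tumours, and their part in the β1D value was not tested.

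**Figure D3:**
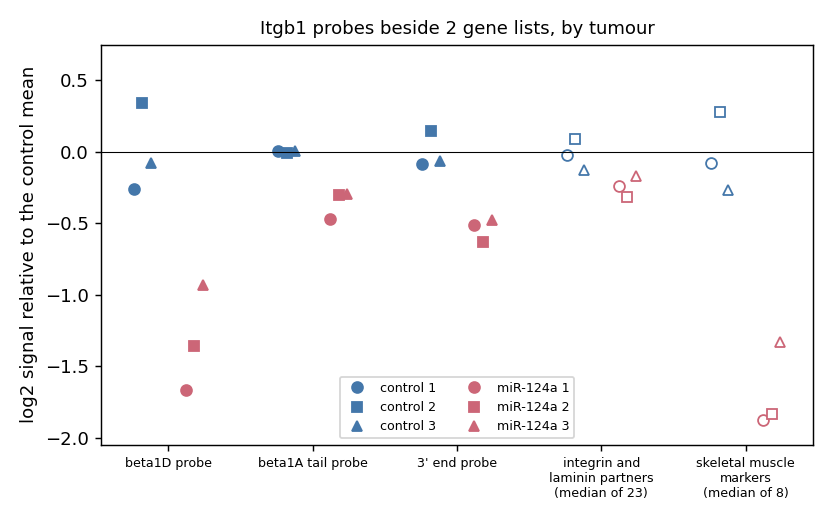
Log2 signal relative to the control mean (vertical axis) in each of the 6 tumours for the 3 Itgb1 probes (filled symbols) and for the median over 23 integrin and laminin partners and over 8 skeletal muscle markers (open symbols). The miR-124a tumours lie below the controls at each probe, with differences of -1.32 at the β1D probe, -0.36 at the β1A tail and -0.54 at the 3′ end. The probe called β1A tail may read both forms. The muscle median of the same tumours is -1.88 to -1.33.

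Tln1 encodes talin, the adaptor that couples integrin tails to actin. It read 3.44, 3.54 and 3.37 in controls and 3.00, 2.83 and 3.05 with the mimic (probe at mm9 chr4:43544393-43544452, - strand). The groups were apart, and the difference of -0.49 ± 0.10 did not pass (limma adjusted p = 0.0574). A second, dimmer Tln1 probe gave -0.15, with overlapping groups.

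Lamc1 encodes the γ1 chain found in most laminins of the basement membrane. Its brightest probe (mm9 chr1:155066154-155066213, - strand) read 3.21, 3.41 and 3.26 in controls and 2.94, 2.94 and 2.89 with the mimic. The miR-124a tumours sat close together below all controls, and the difference was -0.37 ± 0.09 (limma adjusted p = 0.0789). Of 4 tested Lamc1 probes, 3 gave values from -0.60 to -0.30 with groups apart. The other probe was well above background on all 3 miR-124a arrays but on 2 of 3 control arrays, so it was tested only through the group where it was higher, and its value of 0.39, with overlapping groups, is a description.

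The rest of the adhesion group overlapped between the groups. The junctional adhesion molecule gene F11r had -0.33 ± 0.23 (adjusted p = 0.403), with a control SD of 0.40 that was the largest of the 36, and the value was -0.09 without control 2. Chsy1, a chondroitin sulfate synthase, had -0.08 and Plod3, a lysyl hydroxylase of collagen, had -0.07, with intervals of -0.35 to 0.19 and -0.33 to 0.20. The Plod3 probes disagreed in sign (-0.07 and 0.09).

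The partners of Itgb1 and Lamc1 that are not on the target list were counted for comparison, and of 24 listed, 23 were tested. Among them 2 fell, 0 rose and 21 did not pass, beside 2.75% of all tested genes called lower and 0.488% called higher. Of the 23, 11 lay below without overlap and 0 above, beside 20.6% and 15.0% of all tested genes. Without 1 tumour 0 to 1 of the partners passed. Itga9, an integrin α chain that pairs with β1, fell by 1.08 ± 0.15 (limma adjusted p = 0.0279). Lama2, the laminin α chain of muscle basement membrane, fell by 0.71 ± 0.11 (adjusted p = 0.0339). Itga7, the α chain of the muscle laminin receptor, had -0.92 (adjusted p = 0.0558). The median of the partners was -0.22 and that of the adhesion targets -0.37, and 19 of 23 partners had values below 0.

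The targets of the cytoskeleton and of motility numbered 7, of which 0 passed and 5 had values below 0, with a median of -0.19. Below without overlap lay 3 of the 7, beside 20.6% of all tested genes. At an unadjusted p under 0.05 (limma) 1 of the 7 was lower and 0 higher, close to the 15.9% of all tested genes that were lower at that p. Cav1 encodes caveolin, the coat protein of caveolae. It read -1.43, -0.95 and -1.27 in controls and -1.85, -1.66 and -1.68 with the mimic (mm9 chr6:17289414-17289473, + strand). Groups were apart, with a difference of -0.51 ± 0.14 (limma adjusted p = 0.0962) and -0.54 at a second probe, where groups were apart too. That value was -0.32 with normexp correction.

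Rhog, a small GTPase of membrane ruffling, had -0.26 (limma adjusted p = 0.200), again without overlap. Arpc1b, a subunit of the Arp2/3 actin nucleator, had -0.22 with overlap.

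The brightest probes of Vim and Iqgap1 gave values close to 0. Vim, the intermediate filament gene of mesenchymal cells, read 5.20, 5.23 and 5.05 in controls and 5.09, 4.92 and 5.16 in miR-124a tumours. The groups overlapped, and its value of -0.11 ± 0.11 (limma adjusted p = 0.547) turned to 0.12 under quantile scaling and 0.11 with normexp correction, so it has no settled direction. Iqgap1, a scaffold that binds actin, calmodulin and small GTPases, read 0.75, 0.57 and 0.65 in controls and 0.69, 0.62 and 0.73 with the mimic. Its groups overlapped at this probe, with a difference of 0.02 and a 95% interval of -0.20 to 0.24. The other 2 Iqgap1 probes, which are dimmer, gave values above that interval, 0.42 with the groups apart and 0.46 with overlap (limma adjusted p over probes = 0.259 and 0.181), and the mean of the probes gave 0.30 (adjusted p = 0.231). Ptpn12, a tyrosine phosphatase of focal adhesions, had 0.08 (interval -0.16 to 0.31).

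**Figure D4:**
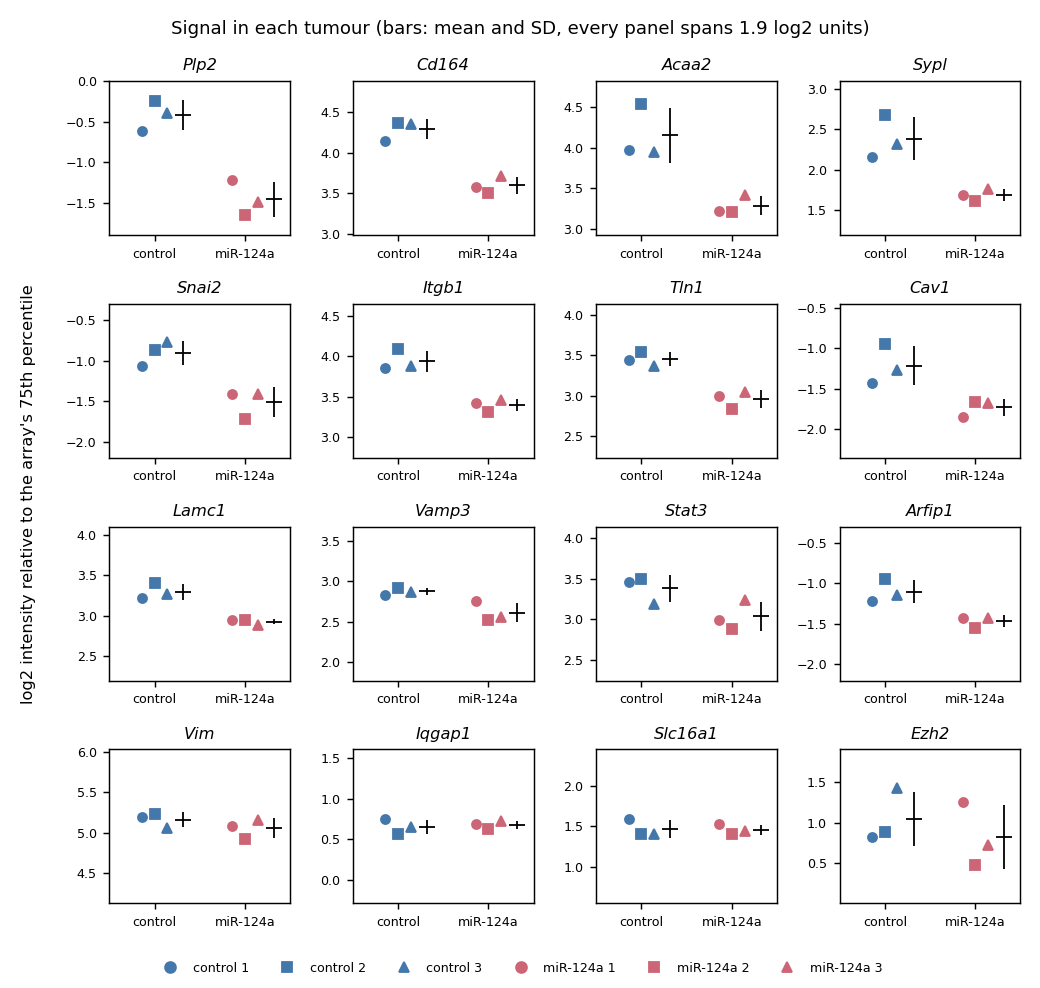
Log2 intensity relative to the 75th percentile of the array (vertical axis, 1.9 log2 units in every panel) of 16 reported targets in the 3 control and 3 miR-124a tumours; each symbol is 1 tumour and the black bars give the mean and SD of a group. The groups stand apart from Plp2 through Arfip1 except at Stat3, and they overlap in Stat3 and the last 4 panels.

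Membrane traffic and the secretory pathway were represented by 8 targets, all with values below 0, of which Plp2 fell and 7 did not pass. Below without overlap lay 7 of the 8, beside 20.6% of all tested genes, of which 2.75% were called lower. The median of the 8 was -0.26, with per-tumour medians of -0.08 to 0.12 in controls and -0.35 to -0.27 with the mimic. Plp2 encodes a small membrane protein with several membrane-spanning segments that is found in the endoplasmic reticulum. It had the largest difference of the 36, and its 60-base probe is shown as the sequence behind it, in lower case throughout because no part is singled out.
Plp2 probe, mm9 chrX:7246752-7246811, - strand: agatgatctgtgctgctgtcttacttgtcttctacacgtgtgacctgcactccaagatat
Plp2 read -0.61, -0.24 and -0.39 in controls and -1.22, -1.65 and -1.49 in miR-124a tumours. The highest miR-124a tumour lay 0.61 below the lowest control. The difference was -1.04 ± 0.15 (SE, n = 3 and 3; limma adjusted p = 0.0311), a signal 2.06-fold lower, and without any 1 tumour it was -1.16 to -0.94 with an adjusted p of 0.0646 to 0.110. This gene has 1 probe on the array.

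Sypl encodes a synaptophysin-like protein of transport vesicles. Its brightest probe (mm9 chr12:33661565-33661624, + strand) read 2.17, 2.68 and 2.32 in controls and 1.70, 1.62 and 1.77 with the mimic. Groups were apart, with control 2 standing above the other tumours. The difference was -0.69 ± 0.15 (limma adjusted p = 0.0620), and the other 2 Sypl probes gave -0.63 and -0.19, both without overlap.

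Arfip1, an effector of Arf GTPases at the Golgi, read -1.22, -0.94 and -1.15 in controls and -1.42, -1.56 and -1.43 with the mimic (mm9 chr3:84300783-84300842, - strand). The groups were apart, at -0.37 ± 0.11 (limma adjusted p = 0.105). Vamp3, the cellubrevin SNARE of recycling endosomes, read 2.84, 2.93 and 2.87 in controls and 2.75, 2.53 and 2.57 with the mimic. All miR-124a tumours were below all controls, and the difference was -0.26 ± 0.10 (limma adjusted p = 0.155). A second probe filed under Vamp3 gave 0.06 with overlap, and it lies on the + strand while the first lies on the - strand (mm9 chr4:150421414-150421473), so the probes may read different transcripts.

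Surf4, a cargo receptor of the early secretory pathway, had -0.25 ± 0.08, with an SD of 0.03 in either group. Serp1, which takes part in protein handling at the endoplasmic reticulum, had -0.24, and Pttg1ip, a membrane glycoprotein that binds securin, had -0.25. In each of these the groups were apart and the adjusted p lay between 0.118 and 0.154. Tom1l1, an adaptor of endosomal sorting, had -0.04 with overlap, and its other 3 tested probes gave 0.09, 0.11 and 0.59, all with overlap.

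**Figure D5:**
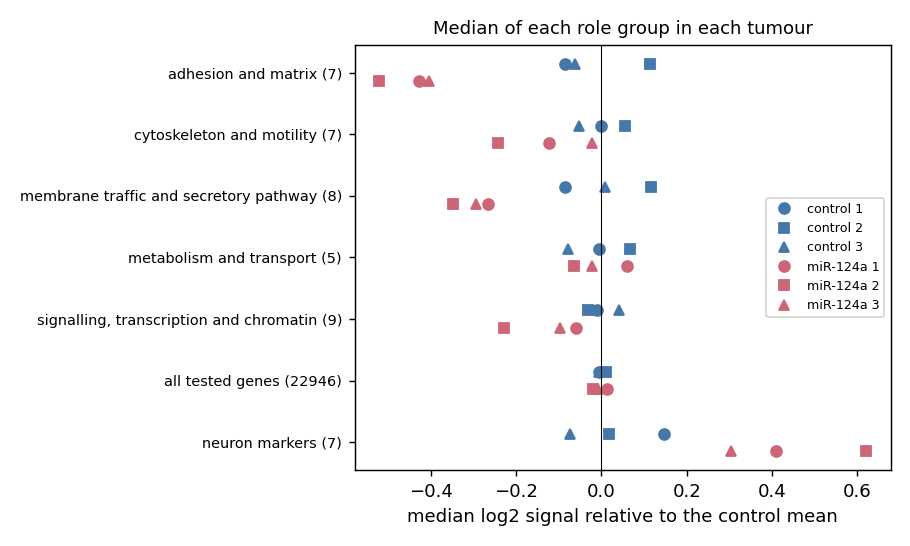
Median over the genes of each role group of the log2 signal relative to the control mean (horizontal axis), in each of the 6 tumours, with all 22946 tested genes and 7 neuron markers for comparison. The miR-124a tumours lie below the controls in adhesion and matrix (-0.52 to -0.40), in membrane traffic (-0.35 to -0.27) and in signalling (-0.23 to -0.06, against -0.03 to 0.04 in controls), overlap them in cytoskeleton and in metabolism, and are above them in the neuron markers (0.30 to 0.62).

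Metabolism and transport held 5 targets, of which 0 passed and 3 had values below 0, with a median of -0.01. Below without overlap lay 2 of the 5, beside 20.6% of all tested genes. At an unadjusted p under 0.05 (limma) 2 of the 5 were lower and 0 higher, beside 15.9% and 11.4% of all tested genes. Acaa2, a thiolase of mitochondrial fatty acid oxidation, read 3.97, 4.54 and 3.95 in controls and 3.22, 3.21 and 3.42 with the mimic. The groups were apart, with control 2 well above the other controls, and the difference of -0.87 ± 0.18 was the second largest of the 36 but did not pass (limma adjusted p = 0.0594). Sphk1, which makes sphingosine 1-phosphate, had -0.42 ± 0.13 (adjusted p = 0.105), also apart.

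The other 3 genes of this group had values near or above 0, with overlapping groups. Slc16a1, the monocarboxylate transporter MCT1, read 1.60, 1.40 and 1.41 in controls and 1.53, 1.40 and 1.45 with the mimic. Its groups overlapped, at -0.01 ± 0.10 (limma adjusted p = 0.960, interval -0.24 to 0.23). Elovl5, an elongase of polyunsaturated fatty acids, had 0.09, and Aldh9a1, an aldehyde dehydrogenase, had 0.22 ± 0.11 (adjusted p = 0.248), the highest value on the list.

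Signalling, transcription and chromatin were covered by 9 targets, of which 0 passed, 8 had values below 0 and 2 lay below without overlap, with a median of -0.13. A count of 2 of 9 is close to the 20.6% of all tested genes below without overlap, and shows nothing about these targets. At an unadjusted p under 0.05 (limma) 3 of the 9 were lower and 0 higher, beside 15.9% and 11.4% of all tested genes. Snai2 encodes Slug, a repressor of epithelial genes. It read -1.07, -0.87 and -0.77 in controls and -1.41, -1.72 and -1.40 with the mimic (mm9 chr16:14709361-14709420, + strand). Groups were apart, with miR-124a 2 the lowest, and the difference was -0.61 ± 0.13 (limma adjusted p = 0.0659).

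Stat3, the transcription factor of interleukin-6 type cytokines, read 3.46, 3.50 and 3.19 in controls and 2.99, 2.89 and 3.24 with the mimic. Control 3 lay below miR-124a 3, so the groups overlapped, and the difference was -0.35 ± 0.14 (limma adjusted p = 0.170). Ezh2, the histone H3 lysine methyltransferase of Polycomb, read 0.82, 0.88 and 1.43 in controls and 1.26, 0.48 and 0.73 with the mimic. Its SE was the largest of the 36, and the value of -0.22 ± 0.25 (limma adjusted p = 0.593) was smaller than its SD in either group, 0.33 and 0.40. When 1 tumour was left out it became -0.03 (control 3), -0.44 (miR-124a 1) or -0.05 (miR-124a 2). Rbms1, an RNA-binding protein, had -0.21 ± 0.08 with groups apart (adjusted p = 0.162), and its other 3 probes gave -0.41 to -0.21, all apart.

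By their brightest probes, the rest of this group lay between -0.13 and 0.11 with overlapping groups. Sp1, a general activator of GC-rich promoters, had -0.13, and Jag1, a ligand of Notch receptors, had -0.12. The kinase gene Mapk14, which encodes p38α, had -0.03, the aryl hydrocarbon receptor Ahr -0.01 and the deubiquitinase Usp48 0.11. The other 3 Usp48 probes gave 0.21 with groups apart, higher with the mimic (limma adjusted p over probes = 0.270), and 0.35 and 0.02 with overlap.

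At the level of probes, 72 of the 79 were tested and 3 passed, all lower, those of Plp2, Cd164 and β1D, beside 2.38% of all tested probes called lower. Of the 72, 54 had values below 0 and 30 lay below without overlap, beside 19.5% of all tested probes. Above without overlap lay 2 of the 72, beside 15.0% of all tested genes, a share of genes and not of probes. Among 21 targets with more than 1 tested probe, 17 had all probes on 1 side of 0. Lamc1, Plod3, Tom1l1 and Vamp3 had probes on both sides, and for all of these the probes above 0 overlapped between the groups. The 2 probes above without overlap were those of Iqgap1 and Usp48 given earlier.

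Relatives of the targets, from the same gene families and not on the list, gave 0 of 31 past the threshold, with 8 below and 5 above without overlap, near the 20.6% and 15.0% of all tested genes, and a median of -0.13; at an unadjusted p under 0.05 (limma) 4 were lower and 1 higher. Des, the muscle intermediate filament gene beside Vim, had -1.63 (limma adjusted p = 0.0513). Snai1, the sister of Snai2, had -0.51 (adjusted p = 0.0630), and Elovl1, a relative of Elovl5, had -0.43 (adjusted p = 0.0732). Of 12 other genes reported as miR-124 targets, which regulate neural or other cell identity, 1 fell, 0 rose and 11 did not pass. Among all tested genes 2.75% were called lower and 0.488% higher. The median of the 12 was -0.24. At an unadjusted p under 0.05 (limma) 4 of the 12 were lower and 2 higher, beside 15.9% and 11.4% of all tested genes. The gene that fell was Tead1, which encodes the DNA-binding partner of Hippo signalling, by 0.51 ± 0.09 (limma adjusted p = 0.0428), a call lost under quantile scaling (0.0510) and without any 1 tumour (0.0781 to 0.152). Sox9 had 0.40 (adjusted p = 0.0590) and Lhx2 0.54 (adjusted p = 0.108), so the reported targets outside the 36 did not all lie on 1 side of 0.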

How the data were processed

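RNA of 6 teratomas, 3 control and 3 miR-124a, was read on 1-colour Agilent arrays. The deposited scanner files give the intensity of each spot after background correction, done per the file headers by Agilent Feature Extraction (version 11.5.1.1 per the submitters' processing notes). The deposited value table holds the authors' log2 values, equal to the log2 intensity shifted by a constant per array (SD of the difference 0.0029), with medians of -3.07 to -2.97; it served as an alternative. Here log2 intensity was taken minus the 75th percentile of each array; 22 probes marked as outliers were left out, and 0 spots were saturated. Probes that rose well above background on every array of either group were tested, and the brightest tested probe stood for a gene. The comparison used lmFit and eBayes of limma 3.58.1 (R 4.3.3) on the 6 arrays with no covariate, tested on simulated data; figures used matplotlib 3.10.9. The number of arrays limits the precision. In the simulated data, where few genes were changed, 12% of 1.5-fold and 66% of 2-fold changes passed the threshold. A gene that did not pass may therefore still differ. Positions are those of the array annotation (mm9); whether a probe is exonic or in a UTR was not analysed here.

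The genes and lists were chosen with earlier results of these data known. Values in every tumour are given for genes past the threshold, for the 10 smallest p-values and for Itgb1, Lamc1, Slc16a1, Iqgap1, Vamp3, Vim, Stat3 and Ezh2, and up to 3 genes of a comparison list are named by the smallest p. Further probes of a gene were chosen for mention after their values had been seen. The values of 1 gene of the list are not reported here, though counts and medians include it. The level of the mimic was not analysed here.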

Additional observations from a re-analysis of the deposited data

How the results depend on the processing

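Results were recomputed with quantile scaling, with normexp (offset 50) followed by quantile scaling, from the authors' table, without the filter on dim probes or with it required on all 6 arrays, from the mean or the dimmest probe, with a replicate block, with a variance trend and robust estimation, with array weights and without each tumour; probe-level alternatives for Itgb1 were chosen after seeing the data. Targets called lower were 8 with normexp and 8 with the trend (Acaa2, Cd164, Itgb1, Lamc1, Plp2, Snai2, Sypl and Tln1 both times), 0 without the filter (16 lower at an unadjusted p under 0.05, limma), 0 with the block and 0 to 0 without 1 tumour. Their probes past the threshold were 11 with normexp, 0 without the filter, 0 with the block and 0 to 1 without 1 tumour. All genes called lower were 957 with normexp, 1344 with the trend, 77 without the filter, and 0 to 357 without 1 tumour. All genes called higher were 186 with quantile scaling, 583 with normexp, 379 with the trend, 19 without the filter, 56 with the dimmest probe and 0 to 62 without 1 tumour. The main comparison did not use the replicate numbers as pairs. Deviations of same-numbered tumours correlated at -0.16, -0.04 and -0.06, and those of differently numbered tumours at -0.21 to 0.34. With 3 tumours in each group these correlations cannot settle whether the numbers pair the tumours. With the number as a block 0 genes were lower and 0 higher (4952 at an unadjusted p under 0.05, limma). Signs turned for Ahr (0.0065 quantile, 0.0039 normexp), Mapk14 (0.0129 quantile), Slc16a1 (0.0280 quantile, 0.0521 normexp), Vim (0.119 quantile, 0.110 normexp), Tom1l1 (0.0021 quantile, 0.0404 normexp, 0.187 mean, 0.106 dimmest, 0.0286 array weights), Plod3 (0.0147 mean, 0.0943 dimmest), Lamc1 (0.385 dimmest) and Vamp3 (0.0633 dimmest). Without 1 tumour the range was -0.0616 to 0.0717 for Ahr, -0.140 to 0.0020 for Chsy1, -0.0195 to 0.0683 for Iqgap1, -0.209 to 0.0260 for Jag1, -0.0726 to 0.0199 for Mapk14, -0.123 to 0.0210 for Plod3, -0.0437 to 0.0545 for Slc16a1 and -0.157 to 0.0672 for Tom1l1. The cause of these changes was not tested. The planned comparison of probes by a miR-124 seed match was not run.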
